A study of Rattus norvegicus with 96 samples.

Results

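The interferon-regulated genes described here are 33 genes that include Rtp4, a receptor transporter protein gene that interferon induces. They were listed by symbol, chosen by their ethanol minus water differences and their correlation with Rtp4 in earlier results of these data, and each was read from the probe set with the highest mean over all arrays. All 33 had such a probe set, of 14217 genes measured by a probe set that names 1 gene. For the members both of those measures are therefore descriptions and carry no test.

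The study profiled brain tissue on 96 Affymetrix expression arrays, from the alcohol-preferring P rat, which was bred to drink ethanol freely. There were 48 arrays of the central nucleus of the amygdala (CeA), an output nucleus with a part in stress and withdrawal, and 48 of the nucleus accumbens shell (NAc shell), a striatal part of the reward system. Ethanol rats had limited access to ethanol and water rats had none, and brains were sampled 1, 6 or 24 h after drinking last took place. The labels give no ages and do not say whether arrays came from separate animals or whether both regions came from the same rats, so p-values measure the spread between these arrays. At 1, 6 and 24 h there were 11, 10 and 10 arrays of ethanol rats in the CeA, beside 6, 5 and 6 of water rats. For the NAc shell these numbers were 10, 10 and 11 beside 7, 5 and 5.

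Interferons are cytokines that cells release on sensing viral nucleic acid. Type I interferon binds a receptor whose kinases activate Stat2, which acts with Irf9 at a DNA element called ISRE. Interferon gamma acts through its own receptor and another element, GAS. In brain, microglia, endothelium, astrocytes and neurons all hold interferon-induced transcripts at a low resting level.

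Promoter sequence was taken from RefSeq on the GRCr8 build, 250 bases before to 50 after each gene's start, and 28 of the 33 members had an entry. Rtp4, Usp18, Isg15, Ifit2 and Mx2 had none. Of the 28, 17 (60.7%) held ISRE-like letters, GAAANNGAAA or, on the other strand, TTTCNNTTTC, where N is any base. These letters were in 3.92% of all 33469 promoters in the table and in 3.21% of those of the measured genes. GAS-like letters, TTCNNNGAA, which read the same on both strands, were in 9 of the 28 (32.1%) and in 8.87% of all promoters. The 2 kinds of match can overlap by some bases, as they do in Bst2. A match is a description of the letters and not a bound site.

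The stretches below surround ISRE-like letters in some of the members, and they are given 5′ to 3′ on the gene's strand with each match in capitals. Ifit3 among them had too low a signal to be tested in either region. Irgm, Bst2 and Ifitm3 hold GAS-like letters too.
Irf7, chr1:205800058-205800117, minus strand: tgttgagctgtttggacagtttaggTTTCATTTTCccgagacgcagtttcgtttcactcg
Ifitm3, chr1:205541768-205541827, minus strand: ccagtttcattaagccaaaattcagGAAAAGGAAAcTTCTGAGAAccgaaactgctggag
Irgm, chr10:33742579-33742637, minus strand: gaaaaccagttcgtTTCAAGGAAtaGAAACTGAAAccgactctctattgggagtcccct
Ifi44, chr2:243303841-243303891, minus strand: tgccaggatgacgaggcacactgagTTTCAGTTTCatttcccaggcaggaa
Eif2ak2, chr6:21941113-21941153, plus strand: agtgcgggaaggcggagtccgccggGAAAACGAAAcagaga
Bst2, chr16:18255058-18255123, minus strand: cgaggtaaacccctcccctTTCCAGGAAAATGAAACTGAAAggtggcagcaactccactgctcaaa
Ifit3, chr1:241527257-241527316, plus strand: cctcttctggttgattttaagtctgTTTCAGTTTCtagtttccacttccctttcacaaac
B2m, chr3:129549155-129549214, plus strand: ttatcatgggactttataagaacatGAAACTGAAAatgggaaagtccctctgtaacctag
Psmb10, chr19:50743293-50743390, minus strand: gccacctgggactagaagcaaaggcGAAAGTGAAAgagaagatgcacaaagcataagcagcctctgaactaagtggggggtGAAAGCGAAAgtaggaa

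A second set holds GAS-like but no ISRE-like letters. It is shown because these 3 genes had a low or negative correlation with Rtp4 in the CeA, described further on. That correlation was 0.02 for Irf1, 0.21 for Irf9 and -0.50 for Samhd1, while a further probe set of Irf9 gave 0.38. A link between the letters and the correlation was not tested. Other members do not follow such a pairing. Parp9 (0.63) and Stat2 (0.56) hold neither kind of letters, as does Trafd1 (-0.28), and Psmb10 (0.26) holds 2 ISRE-like matches.
Irf1, chr10:38417768-38417827, plus strand: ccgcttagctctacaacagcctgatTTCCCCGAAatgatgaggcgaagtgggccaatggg
Irf9, chr15:33065712-33065771, plus strand: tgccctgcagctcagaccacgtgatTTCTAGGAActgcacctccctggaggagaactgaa
Samhd1, chr3:166214529-166214588, minus strand: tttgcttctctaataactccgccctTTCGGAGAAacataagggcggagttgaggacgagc
Among members without ISRE-like letters in the window were Stat2, Trafd1, Trim25, Parp9, Sp100, Mx1, Oasl and Psmb9.

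Array values are log2 intensities. A probe set was tested in a region when its mean there lay above the 40th percentile, a log2 value of 6.96 (CeA) or 7.09 (NAc shell). This kept 23 members for the CeA and 20 for the NAc shell, of 18625 probe sets in each. Of the members, 19 were tested in both regions, 4 (Irf1, Mx2, Psmb8 and Ifi44) in the CeA alone, 1 (Bst2) in the NAc shell alone, and 9 in neither. Those 9 were Psmb9, Oasl, Tap1, Ifih1, Oas1a, Ifit3, Mx1, Cxcl10 and Gbp2. Nearest the limit were Ifi44 in the CeA, 0.05 above it, and Mx2 in the NAc shell, 0.01 below it. The brightest member in both regions was B2m, the light chain of MHC class I, with mean log2 values of 11.6 (CeA) and 11.7 (NAc shell). Rtp4 lay near the middle of all probe sets, at 7.97 (percentile 52.6) in the CeA and 7.69 (percentile 48.2) in the NAc shell.

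Some arrays stood apart. The median correlation of an array with the others of its region ranged from 0.950 to 0.985 (CeA) and from 0.962 to 0.989 (NAc shell). In the CeA 4 arrays were low (1 ethanol at 1 h, 1 ethanol at 6 h and 2 water at 6 h), and in the NAc shell 5 were low, all from ethanol rats. CeA titles are numbered in 4 runs, in each of which the times start over, and all 4 low CeA arrays lie in run 4. The labels do not say what a run was, and ethanol and water runs of equal order were assumed to match, so values by run and with the run as a block rest on that assumption. No 2 arrays held identical values. All 6 central amygdala markers passed the filter in the CeA and 5 of 6 did in the NAc shell, while all 6 measured striatal projection neuron markers passed in both, so passing does not separate the regions. The mean log2 value of the striatal markers on water arrays was 8.76 to 10.96 (CeA) and 11.64 to 12.77 (NAc shell). That of the central amygdala markers was 9.78 to 11.20 (CeA) and 10.12 to 10.61 (NAc shell), which overlap.

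Rtp4 was lower on average in ethanol rats at every time in both regions. In the CeA at 1 h, the 11 ethanol arrays ran from 7.47 to 8.38 (median 7.92) and the 6 water arrays from 7.86 to 8.79 (median 7.91). At 6 h the 10 ethanol arrays ran from 7.48 to 8.25 (median 7.72), and the 5 water arrays read 7.86, 7.95, 8.32, 8.46 and 8.53. At 24 h the 10 ethanol arrays ran from 7.26 to 8.31 (median 7.86) and the 6 water arrays from 7.74 to 8.81 (median 8.21). The groups overlapped at every time, while 27 of 31 ethanol arrays lay below the water mean of their own time. At 1 h this held for 9 of 11, but the water mean there, 8.12, lay above the water median of 7.91. At 6 h the 3 highest water arrays were above every ethanol array.

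In the NAc shell Rtp4 spread less within groups. At 1 h the 10 ethanol arrays ran from 7.35 to 7.85 (median 7.70) and the 7 water arrays from 7.49 to 7.97 (median 7.84). At 6 h the 10 ethanol arrays ran from 7.34 to 7.66 (median 7.50), and the 5 water arrays read 7.52, 7.72, 7.94, 8.01 and 8.08. At 24 h the 11 ethanol arrays ran from 7.38 to 8.01 (median 7.71), and the 5 water arrays read 7.67, 7.84, 7.85, 7.93 and 8.10. All groups overlapped, and 28 of 31 ethanol arrays lay below the water mean of their time.

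**Figure D1:**
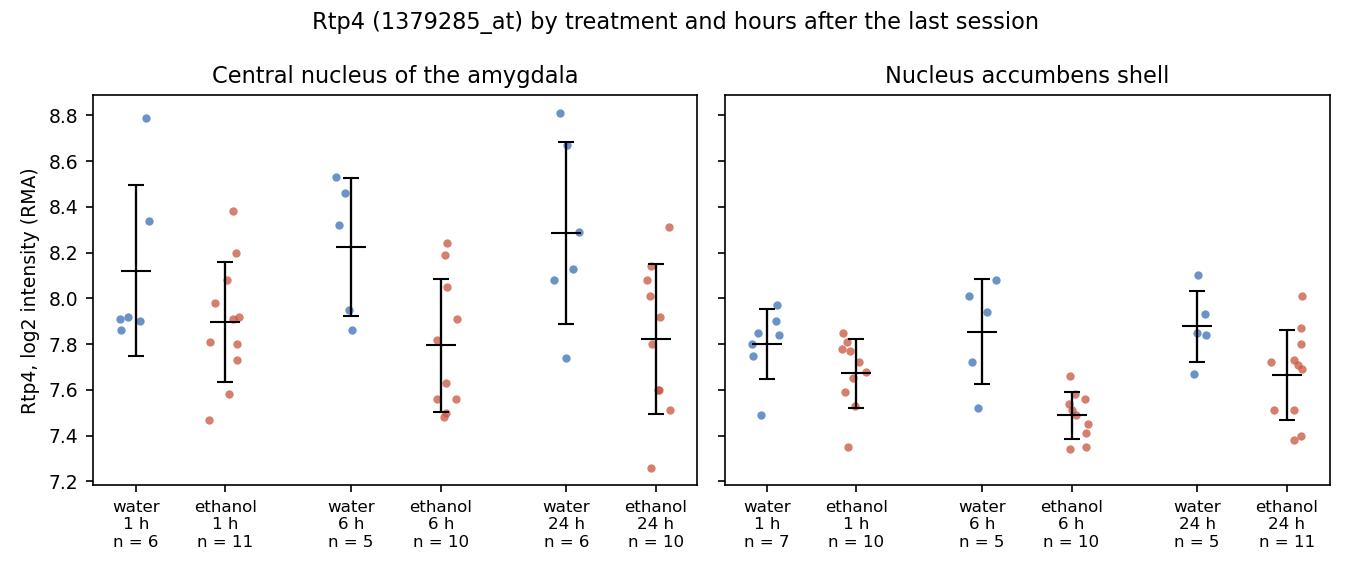
Log2 intensity of Rtp4 on each array (points, shifted sideways at random), with the group mean and SD (black), for water and ethanol rats at 1, 6 and 24 h in both regions. Ethanol means lie below water means at each time, with overlapping points, and the spread within groups is wider in the CeA.

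Averaged over the 3 times, the ethanol minus water difference of Rtp4 in log2 values was -0.37 (SE 0.09) for the CeA, or 22.7% lower, and -0.24 (SE 0.05) for the NAc shell, or 15.1% lower. By time it was -0.22, -0.43 and -0.46 at 1, 6 and 24 h in the CeA. The NAc shell values were -0.13, -0.37 and -0.21. Within the 4 CeA runs, matched by order as assumed above, the differences were -0.21, -0.49, -0.27 and -0.39. The last came from 6 h alone with 2 water arrays, and run 1 held 3 water arrays over the 3 times. Rtp4 was lower in each run, but the runs divide the values used in choosing it, so nothing is read from that. With the run as a block the CeA difference was -0.39 (SE 0.09). Without the low arrays Rtp4 differed by -0.33 (CeA) and -0.22 (NAc shell), and the median of the tested members was -0.07 and -0.06. Among the tested members no other gene had a difference as large in either region.

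Among all probe sets, 50.7% were lower in ethanol rats in the CeA (median difference -0.0014) and 46.6% in the NAc shell (median 0.0059). Of the tested members, 17 of 23 were lower in the CeA (median -0.10) and 16 of 20 in the NAc shell (median -0.07). The NAc shell direction turned with a filter at the 60th percentile, which left 6 members there without Rtp4, 2 of them lower, with a median of 0.05. No member passed an adjusted p of 0.05 in limma over the 3 times or at any single time in either region, against 0% of all probe sets in each of these 8 comparisons. With the run block, 1 member, Rtp4, passed in the CeA, where 0.258% of all probe sets did, and it passed in 15 of 48 such fits with 1 array left out. These contrasts were used in choosing the members, so nothing is read from the counts.

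At an unadjusted p below 0.05, 5 of 23 members were lower over the 3 times in the CeA, where 3.54% of all probe sets were. At 1, 6 and 24 h there were 1, 8 and 4 such members, beside 1.54%, 4.68% and 0.328% of all probe sets. With the run block there were 11 over the 3 times, beside 7.83%. For the NAc shell 4 of 20 members were lower over the 3 times, beside 4.32%, and 4, 5 and 1 at the single times, beside 0.725%, 2.71% and 1.41%. On the higher side the CeA had 0 members over the 3 times and 0 with the run block. At the single times it had 1, 0 and 0. Of 18625 probe sets, 859, 1717, 725, 659 and 61 were higher there in that order. The NAc shell had 1 higher member over the 3 times and 0, 1 and 1 at the single times. Beside these stood 1257, 216, 471 and 434 probe sets. The contrasts were used in choosing the members, so nothing is read from these counts. The ethanol and water arrays of a tested member overlapped at every time in both regions, in 69 of 69 pairs of groups (CeA) and 60 of 60 (NAc shell). Over all probe sets, 0.0268% (CeA) and 0.0322% (NAc shell) of such pairs did not overlap, so the members' count is near the background.

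**Figure D2:**
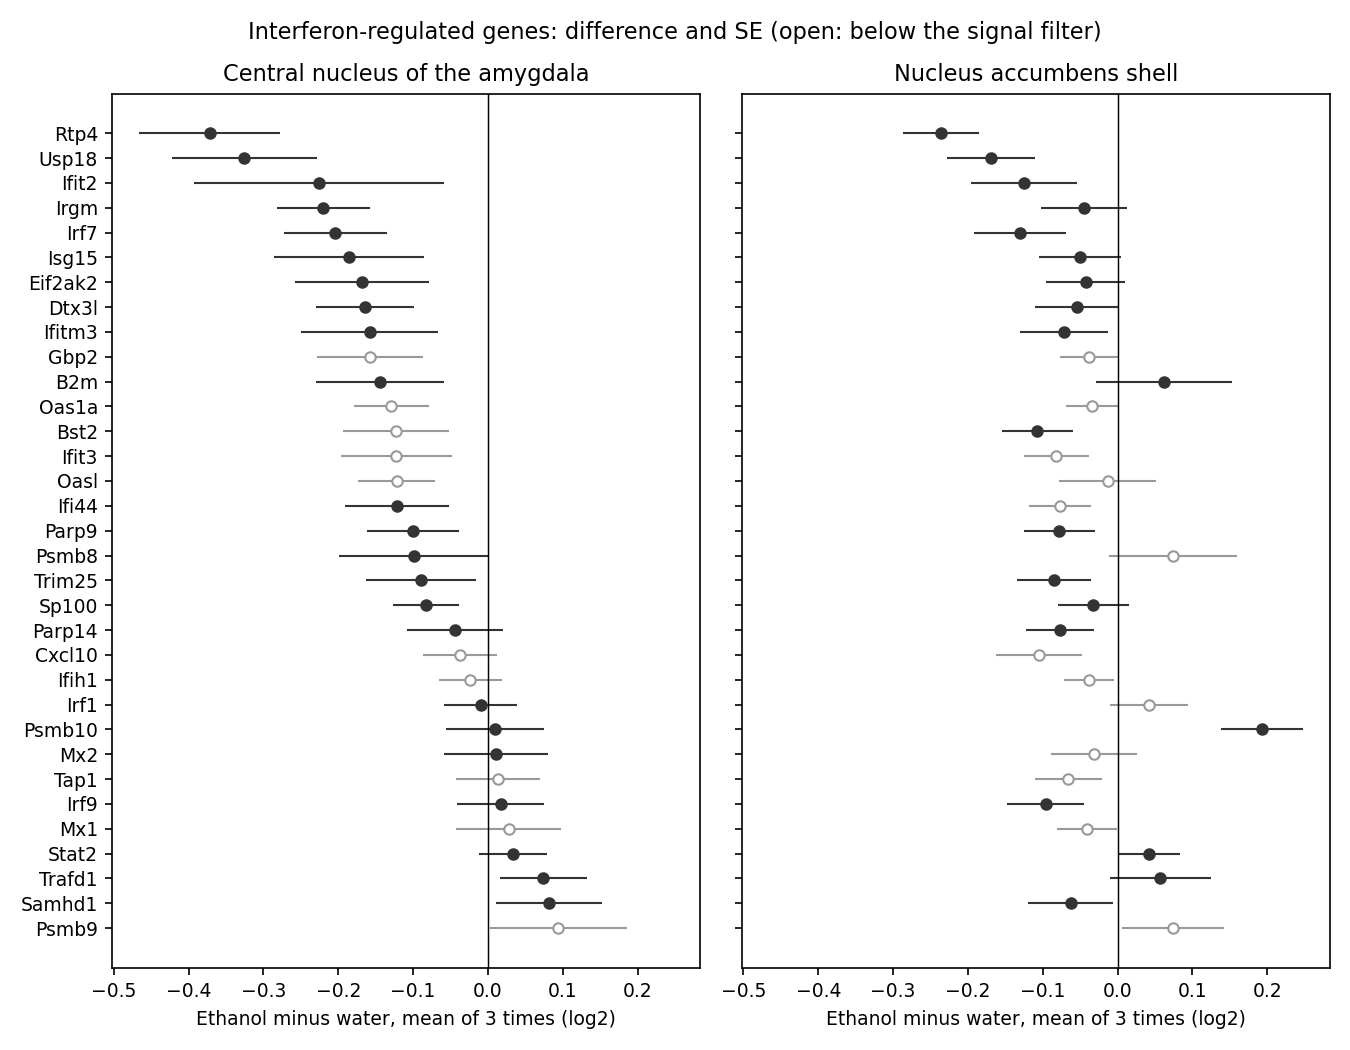
Ethanol minus water difference in log2 units, averaged over the 3 times, with its SE, for the 33 genes in both regions, ordered by the CeA value (filled, tested; open, below the signal filter). Rtp4 and Usp18 lie lowest in both regions, and Psmb10 is the highest in the NAc shell at 0.19.

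Among the signal transducers and transcription factors 2 of 4 were lower in the CeA and 2 of 3 were lower in the NAc shell. Irf7, a transcription factor that is itself interferon-induced and amplifies type I interferon production, was 13.2% lower over the 3 times in the CeA (log2 difference -0.20, SE 0.07) and 8.64% lower in the NAc shell (-0.13, SE 0.06). Its CeA ethanol arrays at 6 h ran from 6.73 to 7.53 (median 7.07), and the 5 water arrays read 7.17, 7.25, 7.49, 7.63 and 7.87. At 1 h its CeA difference was 0.02, and 7 of 11 ethanol arrays were below the water mean. Within runs the Irf7 difference was -0.08, -0.34, -0.19 and -0.28.

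Stat2 and Irf9, which are part of the ISRE-binding complex, differed by 0.03 (SE 0.05) and 0.02 (SE 0.06) in the CeA. The NAc shell values were 0.04 (SE 0.04) for Stat2 and -0.10 (SE 0.05) for Irf9. A further probe set of each gave the other sign in the CeA, -0.08 for Stat2 and -0.09 for Irf9. Irf1, a factor induced by interferon gamma, differed by -0.01 (SE 0.05) in the CeA.

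Regulators of the response were lower in 6 of 7 cases in both regions, with medians of -0.10 and -0.08. Usp18, which removes Isg15 from proteins and damps signalling at the type I receptor, was second after Rtp4. In the CeA at 6 h its 10 ethanol arrays ran from 7.55 to 8.72 (median 7.91), and its 5 water arrays read 8.02, 8.14, 8.61, 8.64 and 8.90. Both groups overlapped, with 6 ethanol arrays below every water array. At 1 h and 24 h the CeA ethanol medians were 8.14 and 8.16 and the water medians 8.32 and 8.36.

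In the NAc shell at 1 h, Usp18 ran from 7.59 to 7.95 (median 7.80) in 10 ethanol arrays and from 7.86 to 8.15 (median 8.06) in 7 water arrays, so 6 ethanol arrays lay below every water array. Over the 3 times Usp18 was 20.2% lower in the CeA (-0.33, SE 0.10) and 11% lower in the NAc shell (-0.17, SE 0.06). By time the NAc shell values were -0.22, -0.26 and -0.02. Within the CeA runs they were -0.35, -0.47, -0.19 and -0.28.

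Isg15, the ubiquitin-like protein that Usp18 removes, differed by -0.19 (SE 0.10) and -0.05 (SE 0.05) in these regions. In the CeA its ethanol arrays at 6 h reached 8.26 at the highest, with a median of 6.83. Dtx3l and Parp9, partners in 1 ubiquitin ligase complex, differed by -0.16 (SE 0.07) and -0.10 (SE 0.06) in the CeA. Their NAc shell differences were -0.05 and -0.08, from -0.20 and -0.19 at 1 h to 0.12 and 0.06 at 24 h.

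Trim25, a ubiquitin ligase that activates RIG-I, differed by -0.09 and -0.08 in the CeA and NAc shell, and Parp14, an ADP-ribosyltransferase, by -0.04 and -0.08. Trafd1, a feedback inhibitor of innate signalling, was the exception among the regulators, at 0.07 (SE 0.06) and 0.06 (SE 0.07).

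Among 9 tested antiviral effectors in the CeA 7 were lower (median -0.16), and all 8 tested in the NAc shell were (median -0.07). Irgm, an interferon-inducible GTPase that acts on intracellular pathogens, was 14.1% lower in the CeA (-0.22, SE 0.06) and differed by -0.04 (SE 0.06) in the NAc shell. Its 11 CeA ethanol arrays at 1 h ran from 6.92 to 7.56 (median 7.34) and its 6 water arrays from 7.43 to 7.68 (median 7.50). Of these, 8 ethanol arrays were below every water array, and over all times 28 of 31 lay below the water mean. Within runs the Irgm difference was -0.21, -0.29, -0.15 and 0.06, so run 4 differed in sign.

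Ifit2, which blocks translation of viral RNA, differed by -0.23 (SE 0.17) in the CeA and -0.13 (SE 0.07) in the NAc shell. Its CeA difference at 6 h, -0.52 (SE 0.30), was the largest of any member at a single time. Eif2ak2 (PKR), a kinase that stops translation on binding double-stranded RNA, differed by -0.17 (SE 0.09) and -0.04 (SE 0.05). Ifitm3, a membrane protein that blocks viral entry, differed by -0.16 (SE 0.09) and -0.07 (SE 0.06).

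Sp100, a nuclear body protein, differed by -0.08 (SE 0.04) and -0.03 (SE 0.05) in the same order. Ifi44 differed by -0.12 (SE 0.07) in the CeA. Bst2 (tetherin), which holds budding virus at the membrane, differed by -0.11 (SE 0.05) in the NAc shell, with -0.22, -0.19 and 0.09 at the 3 times. At 6 h its NAc shell ethanol arrays ran from 7.04 to 7.57 and its 5 water arrays read 7.32, 7.35, 7.36, 7.57 and 7.65, so the groups overlapped. Samhd1, which breaks down nucleotides, differed by 0.08 (SE 0.07) in the CeA and -0.06 (SE 0.06) in the NAc shell. Mx2 differed by 0.01 (SE 0.07) in the CeA.

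Antigen processing members did not share 1 direction. B2m differed by -0.14 (SE 0.09) in the CeA and 0.06 (SE 0.09) in the NAc shell, and a further, brighter-in-CeA probe set of B2m gave 0.08 in the CeA. Psmb8, an immunoproteasome subunit, differed by -0.10 (SE 0.10) in the CeA, where it was -0.44 at 6 h and 0.08 and 0.05 at 1 and 24 h. Psmb10, another such subunit, differed by 0.01 (SE 0.07) in the CeA and by 0.19 (SE 0.05) in the NAc shell, the opposite sign to Rtp4.

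The 10 NAc shell ethanol arrays of Psmb10 at 6 h ran from 8.70 to 9.39 (median 8.90) and the 5 water arrays read 8.35, 8.71, 8.76, 8.77 and 8.81. The groups overlapped, and 5 of 31 ethanol arrays over all times were below the water mean of their time. Of the 9 members below the filter in both regions, 6 were lower in the CeA (median -0.04) and 8 in the NAc shell (median -0.04). Oas1a, Oasl, Gbp2 and Ifit3 had values of -0.13, -0.12, -0.16 and -0.12 in the CeA and -0.03, -0.01, -0.04 and -0.08 in the NAc shell. Psmb9, Mx1 and Tap1 were higher in the CeA, at 0.09, 0.03 and 0.01, and had 0.07, -0.04 and -0.07 in the NAc shell. Ifih1 and Cxcl10 had -0.02 and -0.04 in the CeA and -0.04 and -0.11 in the NAc shell. Near the array's lower end such differences are compressed.

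**Figure D3:**
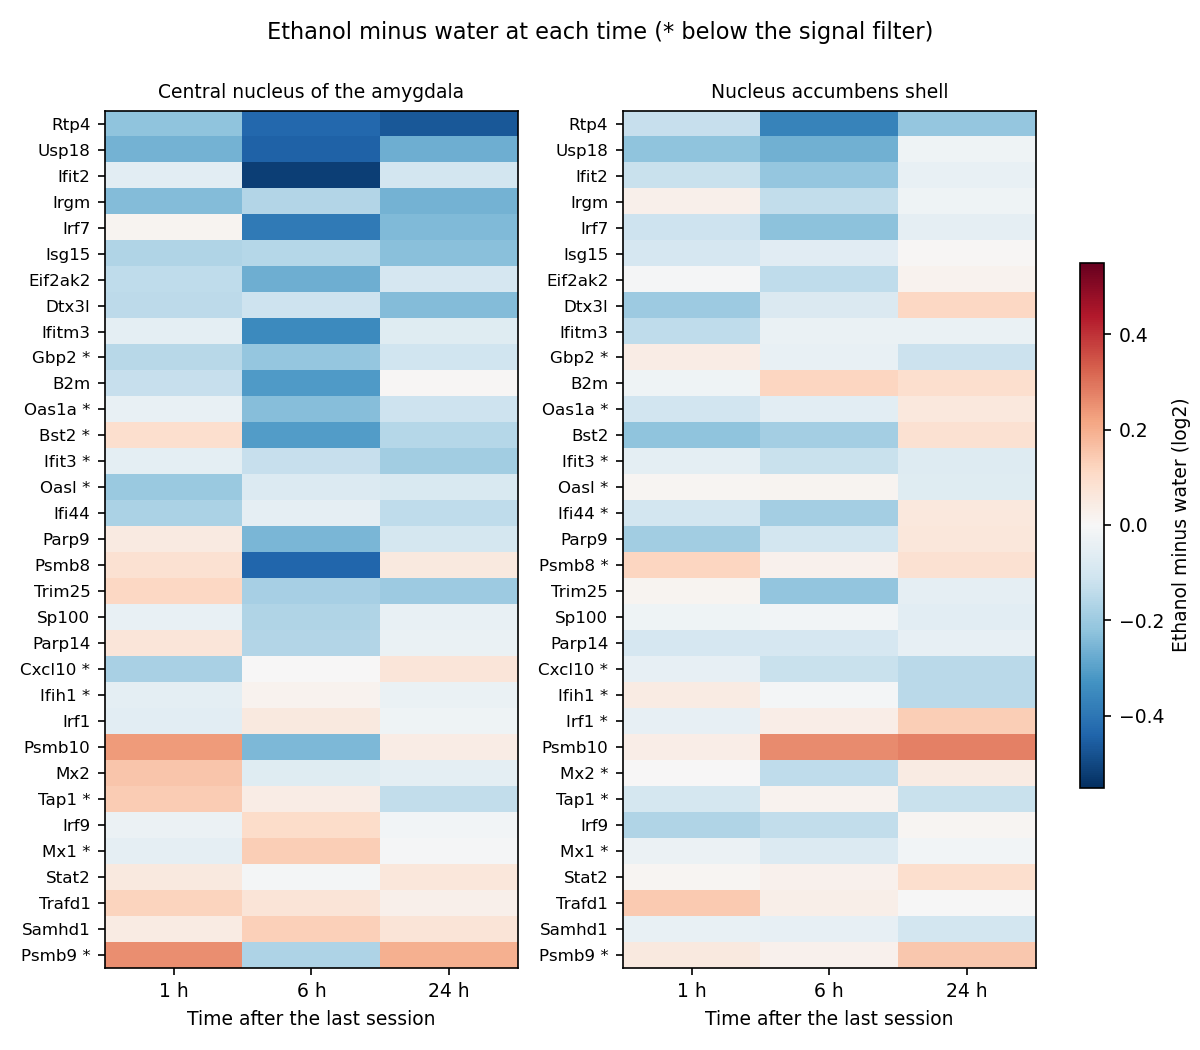
Ethanol minus water difference in log2 units (colour) at 1, 6 and 24 h for the 33 genes in both regions, ordered by the CeA mean. In the CeA 19 of 23 tested members were lower at 6 h and 13 of 23 at 1 h, and in the NAc shell 16 of 20 were lower at 6 h and 11 of 20 at 24 h.

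Set side by side, the CeA value minus the NAc shell value of the ethanol difference was -0.14 (SE 0.11) for Rtp4. B2m had the largest value of the 19 members tested in both regions, -0.21 (SE 0.13). Irgm had -0.18 (SE 0.08) and Psmb10 -0.18 (SE 0.09). These 2 are named because only they had an unadjusted p below 0.05 in limma, as did 1650 of all 17572 probe sets tested in both. Both regions' values were used in choosing the members, so these values are descriptions and nothing is read from the count. Their SEs treat the arrays of both regions as independent.

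The time courses themselves were not used in choosing the members. They rest on the same arrays as the ethanol minus water differences that were used. Their counts are thus not independent of the choice, and nothing is read from them. In each region and treatment, 6 h and 24 h were tested against 1 h together. No member passed in ethanol rats, where the share of all probe sets that passed was 0.0591% (CeA) and 0.0376% (NAc shell), or in water rats, where 0% passed in both. At an unadjusted p below 0.05 there was 1 member in CeA ethanol rats (Trim25; 3.51% of all probe sets), and 3 in CeA water rats (Psmb8, Psmb10 and Trim25; 3.32%). Ethanol rats had 3 in the NAc shell (Ifit2, Rtp4 and Usp18; 3.92%), and water rats 4 (Bst2, Dtx3l, Parp9 and Psmb10; 3.64%).

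Ifit2 in NAc shell ethanol rats came nearest, at -0.32 (SE 0.10) at 6 h and 0.14 (SE 0.10) at 24 h against 1 h, with a limma adjusted p of 0.175. Usp18 there was -0.29 (SE 0.09) at 6 h and -0.03 (SE 0.08) at 24 h, and Rtp4 -0.19 (SE 0.07) and -0.01 (SE 0.07). In water rats of the same region Usp18 was -0.25 (SE 0.11) at 6 h and -0.22 (SE 0.11) at 24 h, so its 6 h values were low against 1 h in both treatments.

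Other interferon pathway genes were taken from lists of 99 genes that are not members, and 79 of them had a probe set. None of 54 tested in the CeA or 52 in the NAc shell passed in either direction for ethanol over the 3 times. Of all probe sets 0% passed in both regions, so the absence of calls is not particular to these lists. In the CeA 40 of 54 were lower (median -0.04), beside 50.7% of all probe sets. For the NAc shell it was 33 of 52 (median -0.03), beside 46.6%. Of the receptors, Il10rb, a chain shared by type III interferon and interleukin 10 receptors, differed by -0.16 (SE 0.07) in the CeA, and Ifnar1, a type I receptor chain, by -0.13 (SE 0.04) in the NAc shell. Of other induced genes, Rnf213 and Uba7, the enzyme that activates Isg15, differed by -0.17 (SE 0.07) and -0.11 (SE 0.05) in the CeA. Parp12 and Ly6e differed by -0.15 (SE 0.06) and 0.19 (SE 0.08) in the NAc shell. Ifngr2, an interferon gamma receptor chain, differed by -0.11 (SE 0.07) in the CeA, and Il10rb by -0.06 (SE 0.05) in the NAc shell.

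For tested signalling genes, the CeA difference was -0.10 (SE 0.08) for Stat3 and -0.07 (SE 0.05) for Irf5. The NAc shell difference was 0.17 (SE 0.10) for Irf2bp2 and -0.06 (SE 0.05) for Tyk2, a receptor kinase. Among sensing genes, Sting1, which relays cytosolic DNA, and its kinase Tbk1 differed by -0.13 (SE 0.08) and 0.06 (SE 0.04) in the CeA, and the adaptors Traf6 and Myd88 by -0.10 (SE 0.05) and -0.05 (SE 0.05) in the NAc shell. Of the brakes on signalling, the phosphatase Ptpn6 and Pias1 differed by -0.12 (SE 0.08) and 0.10 (SE 0.09) in the CeA, and Socs1 and Pias4 by -0.05 (SE 0.04) and 0.05 (SE 0.05) in the NAc shell. The other antigen presentation genes were Canx and Erap1 in the CeA, at -0.02 (SE 0.03) and -0.05 (SE 0.08), and Pdia3 and Psme2 in the NAc shell, at 0.17 (SE 0.10) and 0.07 (SE 0.06). These are the lowest p values among the tested genes of each list, and no tested gene of the lists passed, beside 0% of all probe sets. Of genes left out by the filter on low values, and named after their values were seen, Ddx60, an RNA helicase family member, differed by -0.46 (SE 0.12) in the CeA and -0.15 (SE 0.05) in the NAc shell. Ifi44l, also left out, differed by -0.31 (SE 0.09) in the CeA. No adjusted p is given for either, since they were not among the tested probe sets.

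Across arrays, 20 of the 22 other tested members had a positive correlation with Rtp4 in the CeA, and 12 of 19 in the NAc shell. Correlation with Rtp4 was used in choosing the members, and the regions were not tested against each other. Correlations used values minus the group mean, over 48 arrays of a region, and are descriptions. Both values of a point come from 1 array and so share its dissection and RNA quality, and no p is given. The median Pearson r with Rtp4 was 0.54 (CeA) and 0.12 (NAc shell) over these members. Without the low arrays these medians were 0.56 and 0.14. Over all probe sets the medians were 0.0028 and -0.03, and the 95th percentiles 0.54 and 0.25. Above it lay 11 of 22 members in the CeA and 3 of 19 in the NAc shell, by the 1 probe set read for each.

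The highest CeA correlations were of Usp18 (r 0.83, rho 0.83), Irf7 (0.79, 0.80), Isg15 (0.74, 0.79), Ifit2 (0.72, 0.71) and Ifi44 (0.68, 0.69). Ifitm3 had 0.63, Parp9 0.63, Eif2ak2 0.61, Dtx3l 0.57, Stat2 0.56 and B2m 0.55. Further probe sets that passed the filter gave 0.40 for Stat2 and 0.31 for B2m, both below the 95th percentile of 0.54. For Irf9 a further probe set gave 0.38, above the 0.21 of the one used. Usp18 had the highest r of all 18624 other probe sets tested in the CeA. At the other end were Irf1 at 0.02, Trafd1 at -0.28 and Samhd1 at -0.50. Removing run means left Usp18 at 0.83 and Irf7 at 0.78, and leaving out the 2 arrays farthest from the median left them at 0.80 and 0.79.

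Within single CeA groups of 6 or more arrays, r with Rtp4 ran from 0.75 to 0.97 for Usp18, 0.60 to 0.88 for Irf7, 0.69 to 0.87 for Isg15 and -0.78 to -0.15 for Samhd1. For the NAc shell the highest were Ifitm3 (0.41), Irf7 (0.36) and Usp18 (0.34), and Isg15 was at -0.03. Psmb10 was lowest there at -0.26. Rtp4 itself varied more in the CeA, with a within-group SD of 0.32 against 0.16 in the NAc shell. The median r between pairs of members was 0.42 and 0.10.

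**Figure D4:**
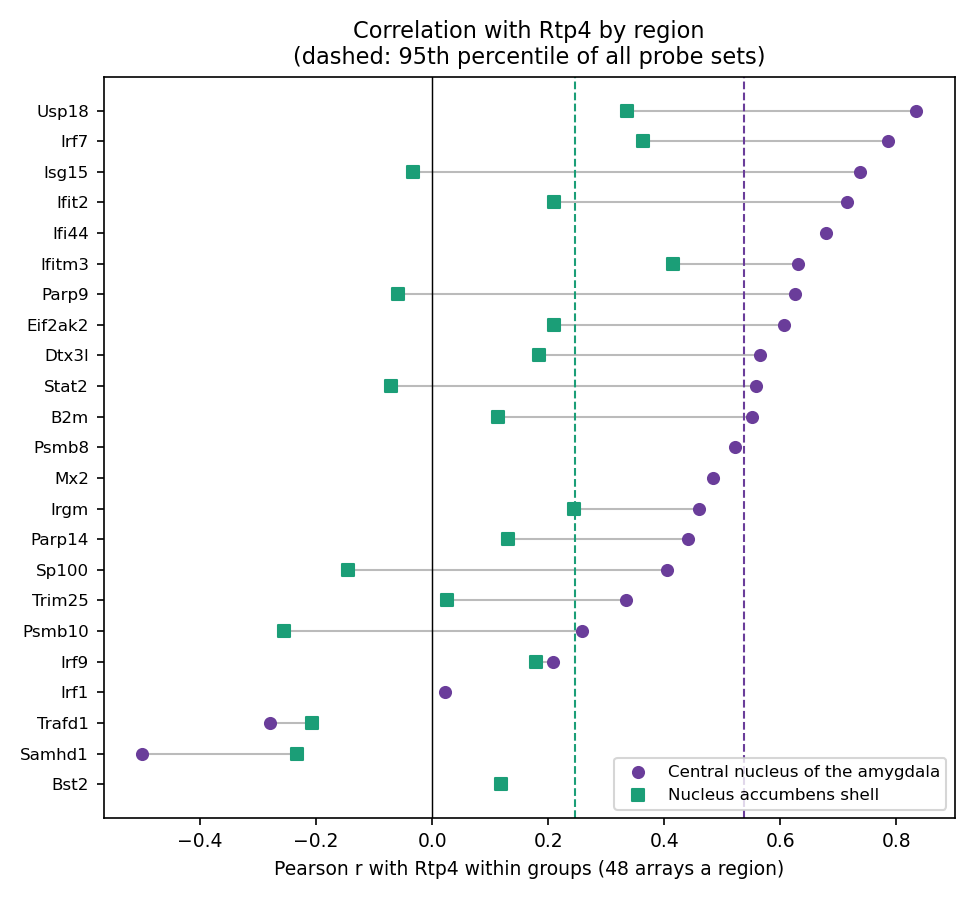
Pearson r with Rtp4 within groups for each tested member (circles, CeA; squares, NAc shell; 48 arrays each), with the 95th percentile of all probe sets in each region (dashed). CeA values lie above NAc shell values for 16 of the 18 members drawn in both regions, the exceptions being Trafd1 and Samhd1.

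**Figure D5:**
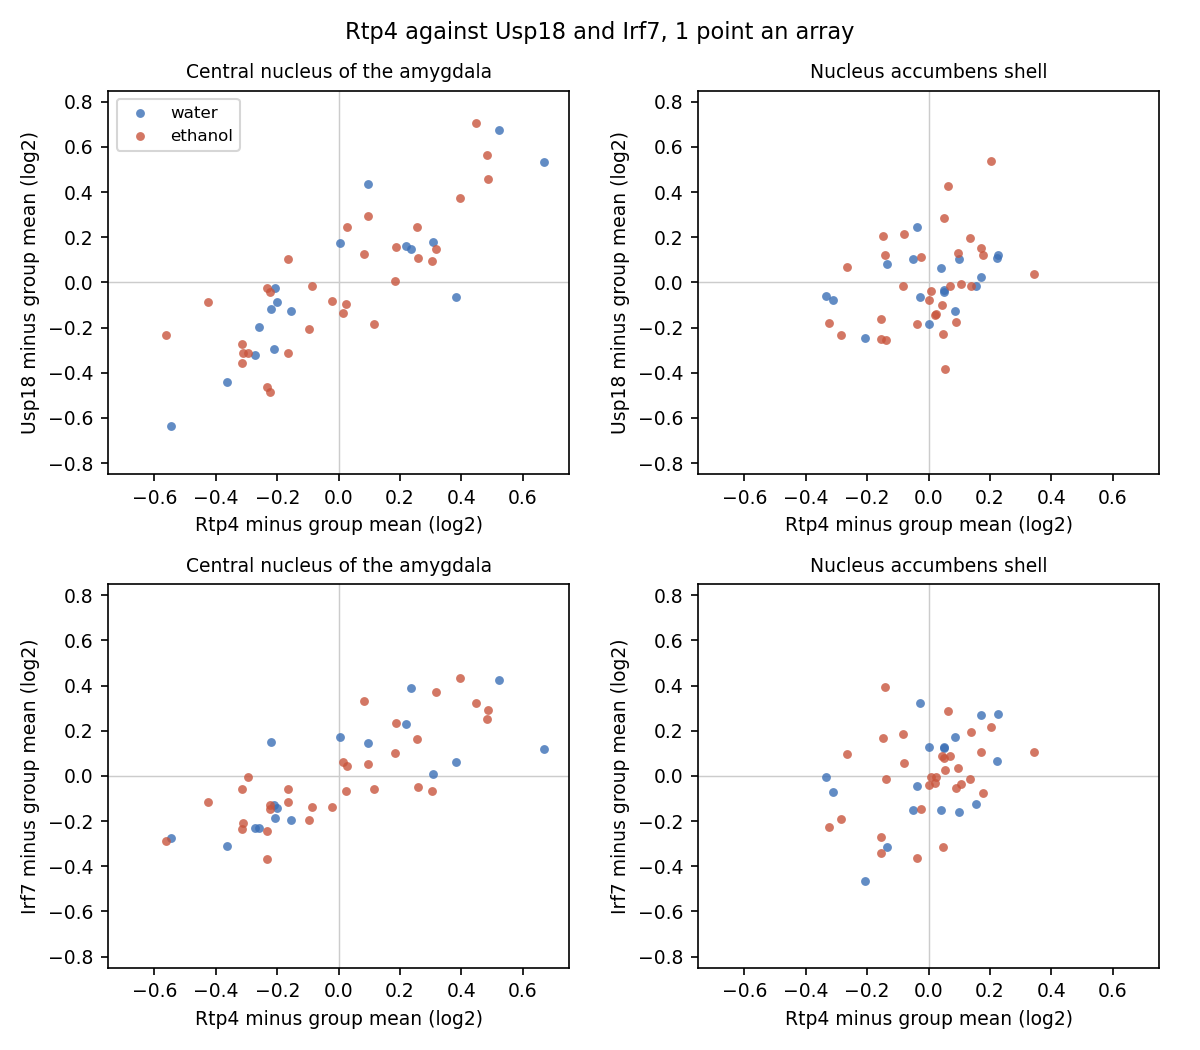
Log2 value minus its group mean for Usp18 (top) and Irf7 (bottom) against Rtp4, 1 point an array, in the CeA (left) and the NAc shell (right), by treatment. Points follow a line in the CeA for ethanol and water arrays alike, and scatter widely in the NAc shell over a shorter Rtp4 range.

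By mean r over both regions, the 10 genes nearest to Rtp4 of 9934 ranked were Usp18, Irf7, Nuak2, Acss3, Ifitm3, Rsad2, Chpt1, Yipf2, Efcab2 and Fitm2. Of these 3 are members and 1, Rsad2 (viperin), was in the pathway lists. This mean hides a difference between regions. When genes were ranked by CeA r alone, the top 20 held 4 members. Ranking by NAc shell r alone put 0 members among the top 20. Nuak2, a kinase, had r of 0.60 (CeA) and 0.51 (NAc shell), and Acss3 0.71 and 0.37.

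Some lists of cell type markers had a positive correlation with Rtp4 in the CeA, and others had a negative one or none. For each list the mean of its tested markers was correlated with Rtp4 within groups. In the CeA r was 0.68 for meningeal fibroblasts (6 of 7 markers tested), 0.59 for microglia (8 of 12), 0.48 for oligodendrocytes (5 of 6) and 0.43 for endothelium (9 of 10). It was 0.41 for red blood cells (1 of 3), 0.29 for astrocytes (7 of 7) and -0.01 for choroid plexus (1 of 5). For striatal projection neurons it was -0.24, for neurons -0.36 and for central amygdala markers -0.45. NAc shell values of r were 0.20 for microglia, 0.08 for meningeal fibroblasts and -0.26 for neurons. The other tested lists there ran from -0.24 (red blood cells) to -0.03 (endothelium). None of 9 measured lymphocyte markers passed the filter in either region.

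Beside the lower Rtp4 of CeA ethanol rats, 7 of 8 microglial markers were lower (median -0.13), with a mean over the 11 measured markers of 7.78 to 8.47 on ethanol arrays and 7.78 to 8.64 on water arrays. All 6 tested meningeal markers were lower as well (median -0.16; 7.46 to 8.46 and 7.39 to 8.50), and all 6 central amygdala markers were higher (median 0.25). All 6 measured striatal projection neuron markers were higher too (median 0.15). Lower were 8 of 9 endothelial (median -0.02), 4 of 5 oligodendrocyte (-0.13), 5 of 7 astrocyte (-0.05) and 3 of 5 neuron markers (-0.02). The shift was thus not particular to microglia and meninges. Of the NAc shell markers, 1 of 7 microglial markers was lower (median 0.06) and 2 of 5 meningeal markers (median 0.06). Also lower there were 6 of 9 endothelial, 2 of 5 oligodendrocyte and 3 of 6 striatal markers. For astrocytes, neurons and the central amygdala, 0 of 7, 0 of 4 and 0 of 5 markers were lower. In whole tissue, fewer cells of a type and less RNA per cell cannot be told apart, and the part of these markers in the Rtp4 result was not tested. The 3 prime minus 5 prime Gapdh signal, a measure of RNA integrity, was 2.92 (SD 0.55) in CeA ethanol arrays and 2.91 (SD 0.50) in water arrays, and had an r of 0.20 with Rtp4 within groups. NAc shell values were 1.79 (SD 0.25) and 1.85 (SD 0.27), with an r of 0.15. Over the tested members this r ran from -0.67 (Samhd1) to 0.37 (Stat2) in the CeA and from -0.65 (Samhd1) to 0.50 (B2m) in the NAc shell. Irgm had -0.45 and -0.34, and Trafd1 -0.37 and -0.45. The part of RNA integrity in the members' values was not tested.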

How the data were processed

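Total RNA of tissue from P rats was amplified in 2 cycles from 25 ng and hybridised to rat arrays, per the labels' protocols. The authors deposited 1 table of log2 intensities made with RMA, per the submitters' processing notes; its version, the log base and whether the regions were normalized together are not given in the sources used here, and values near the floor compress differences. The base was taken as 2 from the range, 3.39 to 15.8. No scanner files were used here, so scan dates could not be tested, and precision is set by how many arrays a group has.

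Of 31099 probe sets, 57 control probe sets were left out. limma 3.58.1 (R 4.3.3) was run separately for the 2 regions, estimating 6 group means with a variance trend and Benjamini-Hochberg adjustment over 18625 probe sets above the 40th percentile. Adjusted p below 0.05 counts as passing. Pathway and marker lists came from textbook knowledge, and members, lists and tests were chosen with earlier results of these data known. Named were all members, the 2 tested genes with the lowest p in each pathway list, and the 10 genes nearest to Rtp4. The fit was tested on simulated data. Alternatives were other filters, run and replicate blocks, array weights, repeated quantile normalization, the mean of all probe sets and leaving out each array; leaving out the low-correlation arrays and the run block with single arrays left out were added after seeing the data.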

Additional observations from a re-analysis of the deposited data

Results flagged for a closer look

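In 11 of 215 groups of members and arrays tested, the highest or lowest array lay far from its nearest neighbour for the group's size, where chance flags about 1 in 20 groups. In the CeA the highest array read 7.82 for Irf1 (water 1 h), 8.26 for Isg15 (ethanol 6 h), 9.58 for Eif2ak2 (water 6 h), 7.94 for Irgm (ethanol 6 h) and 12.25 for B2m (water 6 h). The Eif2ak2 and B2m values are of the same array, which correlated poorly with the other CeA arrays. For the NAc shell the lowest array read 6.92 for Irf7 (ethanol 6 h) and 8.35 for Psmb10 (water 6 h). The highest there read 9.19 for Irf9 (ethanol 1 h), 7.54 for Parp9 (water 24 h), 8.56 for Ifit2 (water 24 h) and 9.39 for Psmb10 (ethanol 6 h).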

How the results depend on the processing

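The number of members passing for ethanol in the CeA, 0 as reported, was 1 with the run block (Rtp4), 2 with array quality weights (Rtp4 and Irgm) and 2 with the replicate block (Rtp4 and Usp18). It was 0 under the other alternatives. In the NAc shell it was 0 under every alternative run. Over all CeA probe sets 0.258% passed with the run block. That share was not counted for the array weights or the replicate block. These contrasts were used in choosing the members, so nothing is read from the counts. With the replicate block on title numbers the Rtp4 difference was -0.47 in the CeA. Whether equal numbers pair the CeA arrays is not settled by their correlations, of which 8 of 17 were above 0.1. These ran from -0.78 to 0.75, with a mean of 0.07, against -0.003 for pairs of other numbers. Pairs of the same assumed run had a mean of 0.21 and pairs of different runs -0.08. In the NAc shell 3 numbers were shared, too few for such a fit. Over the other alternatives Rtp4 stayed between -0.39 and -0.33 in the CeA. Leaving out each array gave -0.41 to -0.33 (CeA) and -0.26 to -0.22 (NAc shell). The Rtp4 adjusted p with the run block, 0.0495, ran from 0.0104 to 0.113 with single arrays left out and passed in 15 of 48 fits. The NAc shell median of members, -0.07 as reported, turned to 0.0496 with the 60th percentile filter, which tests 6 members and not Rtp4. The CeA median r with Rtp4 ran from 0.47 to 0.56 and that of the NAc shell from 0.02 to 0.16. Of 254 values of single members under alternatives, 238 kept the sign. Arrays with few water samples at a time limit the single-time values.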
